A study of Cucumis sativus var. sativus with 11 samples.

Results

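A set of 60 cucumber genes had higher mean levels in ovaries 1 day after pollination than at anthesis, in unpollinated ovaries of the same age and in inhibited ovaries. They were chosen by these values from the 23248 genes of the deposited table of normalized counts (read counts divided by 1 size factor per library). A gene was taken when its mean log2(normalized count + 1) in pollinated ovaries was at least 0.8 above the mean of each of the other groups, and when its mean normalized count was at least 50 in pollinated and at least 5 in anthesis ovaries. Of the 15875 genes that met the level minima, 60 met the rest of the rule. The differences between pollinated ovaries and the other groups are therefore a description of the choice, and no test of them is used as a result.

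Per the labels and the design text, all ovaries came from 1-month-old plants, grown in a net house, of the cucumber line Elem Female. The line is gynoecious (its flowers are female) and non-parthenocarpic (it does not set fruit without pollination). Pollinated ovaries (n = 3) had received pollen of a pollinator genotype and were taken 1 day later. Inhibited ovaries (n = 2) had also been pollinated, and were taken 1 day later, on plants that carried older fruits; no unpollinated ovaries from such plants were among the samples. Unpollinated ovaries (n = 3) were taken at the same age without pollination, and anthesis ovaries (n = 3) on the day the flower opened. Each library was made from the RNA of an individual ovary, with random-primed cDNA. No label says whether the ovaries came from separate plants, so the spread between libraries may not cover the spread between plants.

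An ovary that receives pollen at anthesis resumes cell division and growth, and an ovary of a non-parthenocarpic line that receives none stops growing and withers. Auxin, gibberellin and cytokinin are the hormones best known for the start of fruit growth, and an older fruit on the same vine can hold back a younger one, which is known as first-fruit inhibition. The identifiers of the files carry no gene names, and 0 of them matched the reference table of 23999 cucumber genes. The products of the 60 genes are thus not stated here, and the identity of the tissue could not be checked against markers. In RNA from whole ovaries, a change in the share of a cell type and a change in RNA per cell cannot be told apart.

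Libraries held 18158218 to 26456643 reads assigned to genes. Anthesis replicate 3 came from lane 2 and all other libraries from lane 3. In 4 libraries, pollinated replicates 1 and 3, inhibited replicate 2 and unpollinated replicate 3, 16.8 to 24.8% of the reads were assigned to no single gene, against 10.8 to 13.3% in the other 7. Reads that aligned to several places made up 6.87 to 11.7% of these 4 libraries and 3.68 to 5.33% of the other 7. Reads that fell in no gene were raised too, at 9.26 to 12.5% against 6.31 to 7.22%. The second index sequence took one form in all pollinated and anthesis libraries and in unpollinated replicate 1, and another in both inhibited libraries and in unpollinated replicates 2 and 3. Inhibited libraries thus differed in index form from all pollinated and all anthesis libraries. In those comparisons the index form and the group cannot be told apart. Only unpollinated ovaries had both forms, so a fit that also holds the index form estimates its effect from those libraries alone.

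The 60 genes fell into sets that differed in how the single libraries lay, a division made after the values were seen. In 34 genes all 3 pollinated libraries lay above all 8 other libraries. In 17 genes the 4 libraries richest in unassigned reads lay above the other 7, so that inhibited replicate 2 and unpollinated replicate 3 exceeded pollinated replicate 2. The remaining 9 genes showed neither order. Over the 18679 genes tested, 3.89% had the first order and 1.04% the second. For these 17 genes the values go against a description as raised in pollinated ovaries alone. In the same fit for all genes (edgeR quasi-likelihood test), 42 of the 60 genes were called higher in pollinated than in anthesis ovaries, where 7.39% of all genes were called. Likewise 38 were called higher than in unpollinated ovaries (15% of all genes) and 26 higher than in inhibited ovaries (4.81% of all genes). These counts rest on the contrasts that chose the genes, so high shares were largely given by the choice. Nothing is read from them. All 60 genes passed the filter on low counts.

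**Figure D1:**
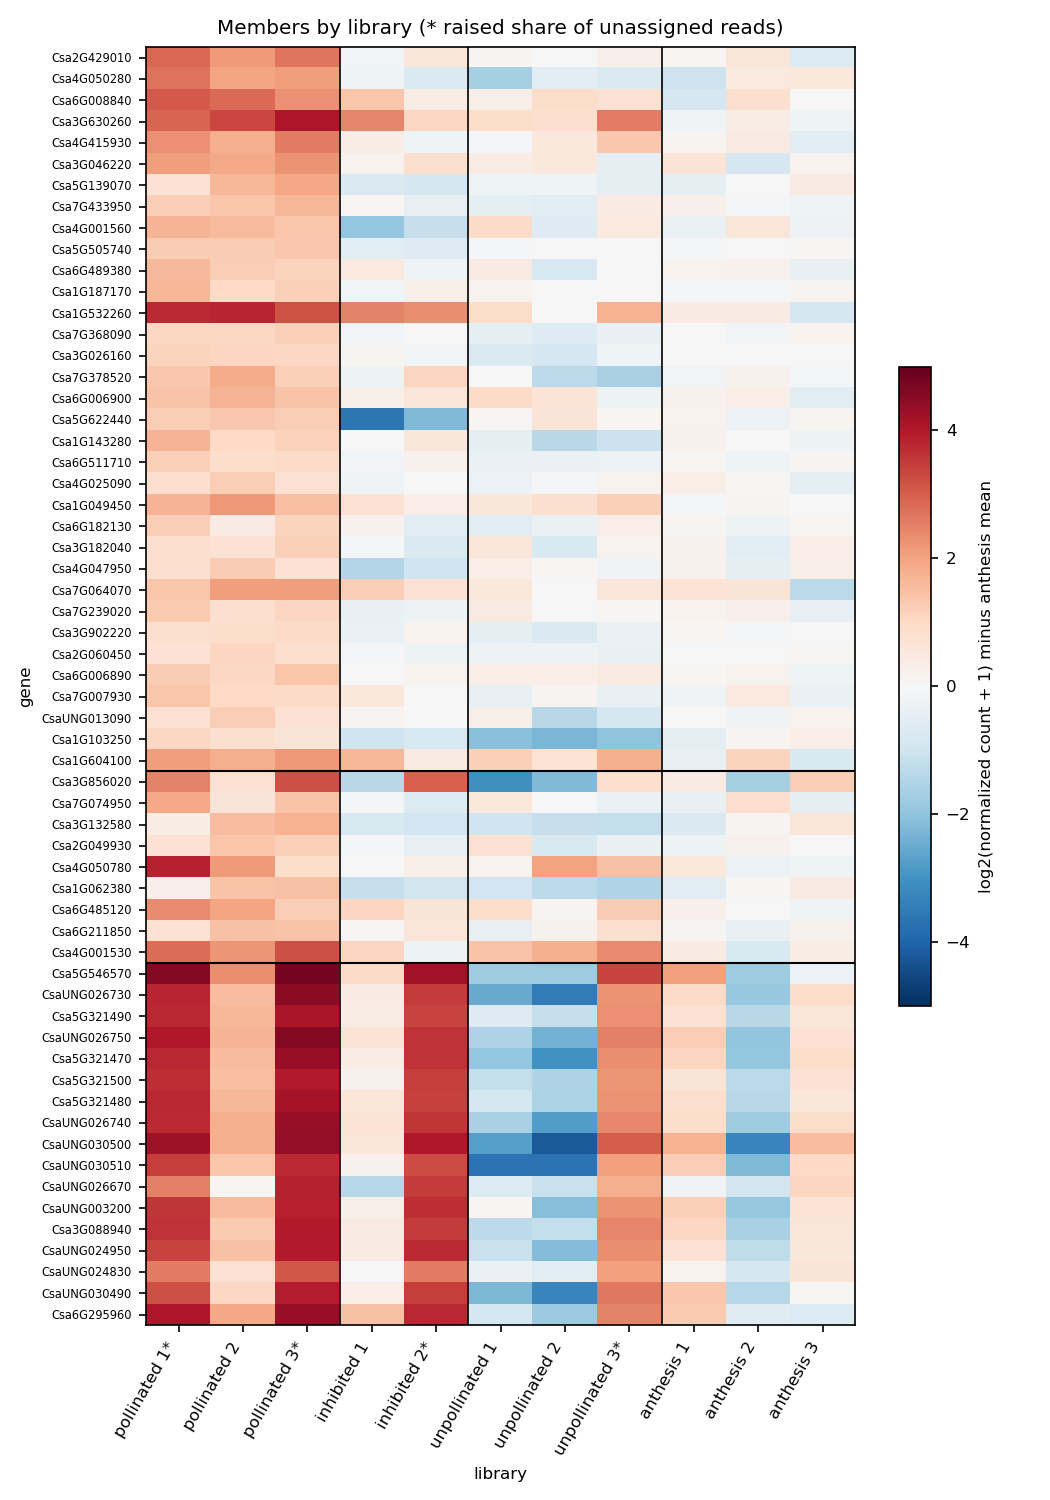
Level of each of the 60 genes (rows) in each of the 11 libraries (columns), as log2(normalized count + 1) minus the mean of the anthesis libraries. Horizontal lines part the 34, 9 and 17 genes described in the text. Asterisks mark the 4 libraries richest in unassigned reads, which hold the highest values of the lowest block.

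Among the 34 genes with separate pollinated libraries, the median difference in mean log2(normalized count + 1) was 1.20 over inhibited, 1.42 over unpollinated and 1.29 over anthesis ovaries. As ratios these are 2.29-fold, 2.67-fold and 2.44-fold. Relative to the anthesis mean, the median over the 34 genes was 1.33, 1.28 and 1.21 in the 3 pollinated libraries. It was -0.06 and -0.01 in the inhibited, and 0.09, -0.07 and 0.03 in the unpollinated libraries. At the median the 34 genes thus stood within 0.09 of the anthesis mean in all 5 of those libraries, and the pollinated library with a low unassigned share lay between the others.

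Csa2G429010 met the rule by the widest margin, and its normalized counts were 97.0, 57.5 and 85.6 in pollinated libraries, against 11.3 and 19.5 in inhibited, 13.9, 12.2 and 15.2 in unpollinated and 13.5, 19.5 and 7.34 in anthesis libraries. The lowest pollinated value was well above every other library, and the inhibited, unpollinated and anthesis values overlapped. By the fitted fold change, the level in pollinated ovaries was 5.25-fold above inhibited, 5.78-fold above unpollinated and 5.88-fold above anthesis ovaries, with a log2 fold change over inhibited ovaries of 2.39 ± 0.44 SE. Csa4G050280 had 108, 63.2 and 70.4 in pollinated libraries, against 13.1 and 9.09 in inhibited, 4.27, 10.3 and 9.09 in unpollinated and 7.18, 22.2 and 22.9 in anthesis libraries. Its pollinated level was 7.03-fold above inhibited, 9.93-fold above unpollinated and 4.58-fold above anthesis ovaries. Csa6G008840 had 123, 104 and 71.3 in pollinated libraries, against 37.5 and 18.2 in inhibited, 17.1, 27.2 and 24.2 in unpollinated and 7.18, 25.8 and 13.8 in anthesis libraries, and it too left the other 3 groups overlapping.

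Csa3G630260 stood highest in pollinated ovaries and lowest at anthesis, with 145, 196 and 314 in pollinated libraries, against 102 and 38.9 in inhibited, 35.2, 33.8 and 111 in unpollinated and 16.2, 24.0 and 15.6 in anthesis libraries. Every inhibited and unpollinated library lay between the anthesis and the pollinated ones, and the pollinated level was 3.04-fold above inhibited, 3.66-fold above unpollinated and 11.7-fold above anthesis ovaries. Csa4G415930 had 293, 212 and 365 in pollinated libraries, against 77.9 and 51.9 in inhibited, 56.6, 87.3 and 154 in unpollinated and 65.5, 81.7 and 40.4 in anthesis libraries. Its pollinated libraries held 289.9 ± 76.5 normalized counts and its anthesis libraries 62.5 ± 20.8 (SD, n = 3 each). Csa3G046220 stood at 107 ± 12.8 in pollinated ovaries (SD, n = 3), at 28.2 and 42.8 in the inhibited libraries, and at 28.3 ± 9.79 in unpollinated and 26.8 ± 13.1 in anthesis ovaries (SD, n = 3 each). Csa7G433950 had 172, 194 and 234 in pollinated libraries, against 78.9 and 54.5 in inhibited, 51.2, 49.7 and 97.0 in unpollinated and 88.0, 70.2 and 63.3 in anthesis libraries. In each of these genes the lowest pollinated library lay above the highest of the other 8.

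**Figure D2:**
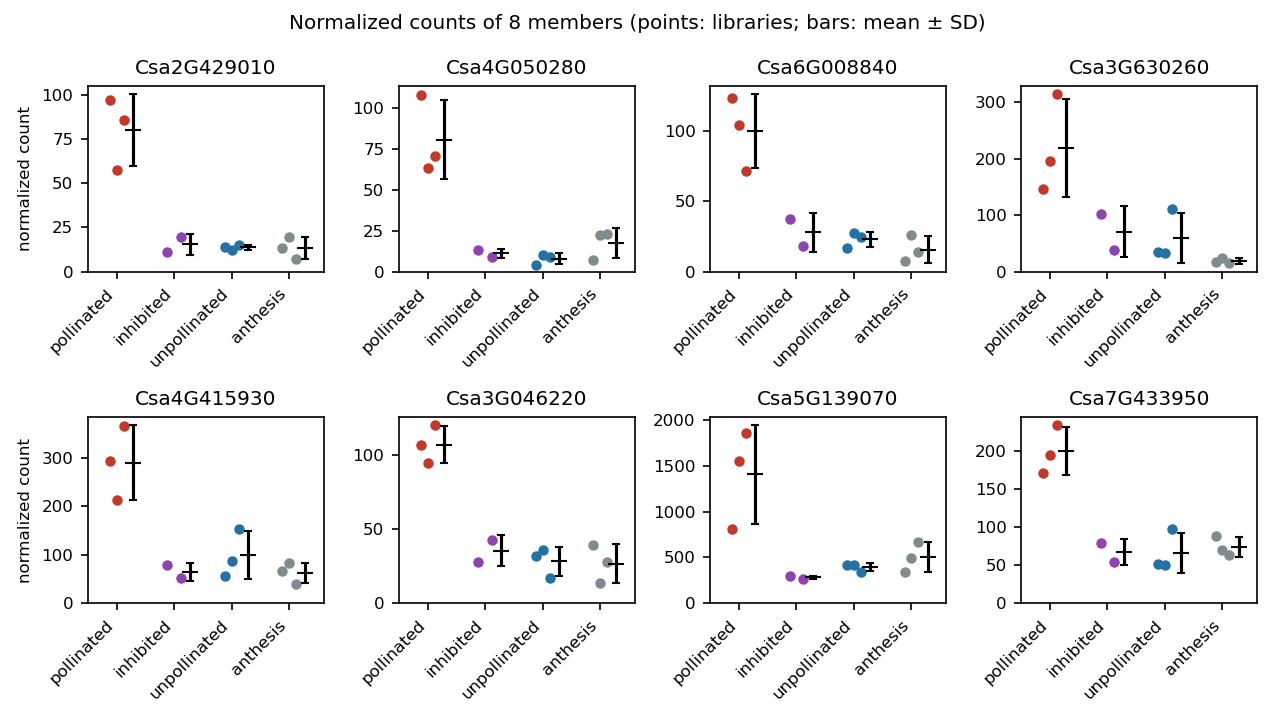
Normalized counts per library (points) with the mean and SD (bars; n = 2 inhibited and 3 in each other group) for 8 of the 34 genes whose pollinated libraries lay above all others, in pollinated, inhibited, unpollinated and anthesis ovaries. Every pollinated point of Csa2G429010 is at 57.5 or more, and no other point of that gene is above 19.5.

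The pair of genes with the most reads among the 60 belonged to this set too. Reads per gene also depend on gene length, which was not used here, so levels were not compared between genes. Csa1G187170 had 23316, 14643 and 16825 in pollinated libraries, against 6767 and 9126 in inhibited, 8369.9, 7492 and 7608 in unpollinated and 7084, 7079 and 8118 in anthesis libraries. Its level was 2.29-fold above inhibited, 2.34-fold above unpollinated and 2.46-fold above anthesis ovaries. Csa6G511710 had 14292 ± 1694 in pollinated ovaries (SD, n = 3), 6349.6 and 8204 in the inhibited libraries, and 5655 ± 85.2 in unpollinated and 7107 ± 886 in anthesis ovaries (SD, n = 3 each). Its unpollinated libraries lay below all others. Csa6G006890 had 2669, 2238 and 2871 in pollinated libraries, against 1089.9 and 1239.9 in inhibited, 1387, 1390.5 and 1493 in unpollinated and 1141, 1248 and 945 in anthesis libraries. Its highest library outside the pollinated group was an unpollinated one. Csa5G505740 had 2294 ± 79.4 normalized counts in pollinated ovaries (SD, n = 3), 651 and 605 in inhibited libraries, 933 ± 29.7 in unpollinated and 938 ± 72.4 in anthesis ovaries (SD, n = 3 each). Its log2 fold changes were 1.86 ± 0.09 SE over inhibited, 1.30 ± 0.07 SE over unpollinated and 1.29 ± 0.07 SE over anthesis ovaries.

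In 5 of the 34 genes both inhibited libraries lay below all 9 other libraries: Csa5G622440, Csa4G001560, Csa4G047950, Csa5G505740 and Csa5G139070. The share of all genes with this order was not counted, so the number 5 is a description only. Csa5G622440 had 109, 118 and 107 in pollinated libraries, against 2.82 and 9.09 in inhibited, 47.0, 72.2 and 47.5 in unpollinated and 51.2, 37.3 and 49.6 in anthesis libraries. Its log2 fold change over inhibited ovaries was 4.29 ± 0.43 SE, and over unpollinated and anthesis ovaries it was 1.00 ± 0.27 SE and 1.28 ± 0.27 SE. Csa4G001560 had 82.0, 74.7 and 65.1 in pollinated libraries, against 5.63 and 10.4 in inhibited, 48.0, 15 and 34.3 in unpollinated and 18.8, 37.3 and 20.2 in anthesis libraries. Csa4G047950 averaged 226 ± 47.8 in pollinated ovaries (SD, n = 3), with 40.4 and 57.1 in the inhibited libraries, and 121 ± 21.2 in unpollinated and 118 ± 32.2 in anthesis ovaries (SD, n = 3 each).

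In 7 of the 60 genes, 6 of them among the 34, all unpollinated libraries lay below the other 8. How many of all genes had this order was not counted, so nothing is read from the number of these 7. Csa1G103250, one of these, had 149, 125 and 115 in pollinated libraries, against 35.7 and 41.5 in inhibited, 16.0, 14.1 and 17.2 in unpollinated and 52.1, 79.1 and 91.8 in anthesis libraries. No groups overlapped, and the order of the levels was pollinated, anthesis, inhibited and unpollinated. Csa1G143280, another, averaged 120.4 ± 31.8 in pollinated ovaries (SD, n = 3), with 48.8 and 71.4 in the inhibited libraries, and 24.7 ± 8.45 in unpollinated and 48.3 ± 7.65 in anthesis ovaries (SD, n = 3 each). Csa7G378520 had 269.7, 384 and 242 in pollinated libraries, against 88.2 and 219 in inhibited, 101, 41.3 and 33.3 in unpollinated and 93.3, 122 and 99.1 in anthesis libraries. Its mean was lowest in unpollinated ovaries, but unpollinated replicate 1 and the inhibited and anthesis libraries overlapped. Csa1G532260 had 89.5, 92.9 and 60.6 in pollinated libraries, against 36.6 and 32.5 in inhibited, 11.7, 5.63 and 21.2 in unpollinated and 8.08, 8.0 and 2.75 in anthesis libraries. Both inhibited libraries lay between the pollinated and the unpollinated ones.

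The 9 genes with neither order overlapped other groups in single libraries. Csa1G062380 had 1216, 2724 and 2773 in pollinated libraries, against 455 and 528 in inhibited, 527, 402 and 359 in unpollinated and 702, 1066 and 1380.3 in anthesis libraries, so pollinated replicate 1 lay under anthesis replicate 3. Csa3G132580 had 431, 988 and 1115 in pollinated libraries, against 196 and 174 in inhibited, 169.7, 150.1 and 149 in unpollinated and 206, 367 and 510.3 in anthesis libraries. Csa5G139070, from the set of 34, had 809, 1553 and 1857 in pollinated libraries, against 294 and 269 in inhibited, 417, 421 and 344 in unpollinated and 345, 495 and 673 in anthesis libraries. In all 3 genes pollinated replicate 1 was the lowest pollinated library, anthesis replicate 3 the highest anthesis library, and both inhibited libraries lay below all anthesis libraries. Csa3G856020 had 97.0, 28.7 and 160.4 in pollinated libraries, against 5.63 and 138 in inhibited, 1.07, 2.81 and 30.3 in unpollinated and 22.4, 4.44 and 40.4 in anthesis libraries, with inhibited replicate 2 above all but 1 pollinated library. Csa4G001530 had 104, 68.0 and 139.9 in pollinated libraries, against 31.0 and 11.7 in inhibited, 39.5, 50.7 and 77.8 in unpollinated and 18.8, 8.0 and 18.4 in anthesis libraries, and unpollinated replicate 3 exceeded pollinated replicate 2.

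The 17 genes highest in the 4 libraries richest in unassigned reads shared one pattern over the libraries. Relative to the anthesis mean, their median log2(normalized count + 1) was 3.73, 1.57 and 4.10 in pollinated replicates 1 to 3. It was 0.41 and 3.50 in inhibited replicates 1 and 2, and -1.30, -2.14 and 2.31 in unpollinated replicates 1 to 3. In anthesis replicates 1 and 3 it was 1.03 and 0.67. The lowest medians belonged to the libraries with the lowest unassigned shares, unpollinated replicate 2 (10.9%) and anthesis replicate 2 (10.8%, with a median of -1.63). Within the 4 libraries and within the other 7 the medians did not follow the share throughout. Unpollinated replicate 1 (12.8%) lay below anthesis replicate 1 (11.6%). The highest share was that of inhibited replicate 2 (24.8%), which lay below pollinated replicates 1 and 3. Inhibited replicate 2 exceeded pollinated replicate 2 in all 17 genes, by a median of 3.84-fold and at least 3.32-fold. In the 34 genes the same ratio had a median of 0.381 and reached 0.738. The orders that define the sets of 17 and 34 genes fix the direction of both ratios, so the ratios are a description only. The part of the unassigned share in these levels was not tested.

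**Figure D3:**
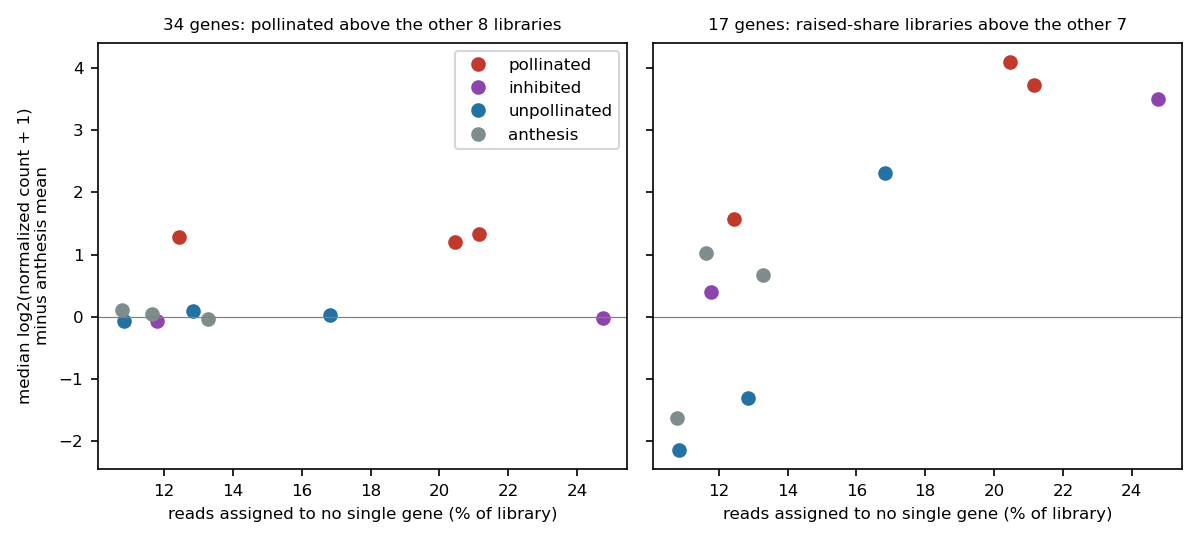
Median level of the 34 genes (left) and of the 17 genes (right) in each library, as log2(normalized count + 1) minus the anthesis mean, against the share of the library's reads assigned to no single gene. In the left panel the pollinated libraries, only 1 of them with a low share, lie at 1.21 to 1.33. In the right panel the 4 libraries with shares of 16.8% or more lie highest. These orders were used to part the genes, so the panels are a description.

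Csa5G321470 received the most reads of these 17 genes, with 4483, 985 and 6729.8 in pollinated libraries, against 419 and 3965 in inhibited, 84.3, 39.4 and 1649.7 in unpollinated and 685, 84.4 and 604 in anthesis libraries. Its 3 neighbours in the sorted list of identifiers, Csa5G321480, Csa5G321490 and Csa5G321500, likewise had those 4 libraries above the other 7. Csa5G321480 had 3751, 878 and 4946 in pollinated libraries, against 413 and 2976 in inhibited, 147, 91.0 and 1313 in unpollinated and 487, 104 and 407 in anthesis libraries. Another run of neighbours held CsaUNG026730, CsaUNG026740 and CsaUNG026750, and one more held CsaUNG030490, CsaUNG030500 and CsaUNG030510. CsaUNG026730 had 1209, 247 and 1937 in pollinated libraries, against 115 and 967 in inhibited, 13.9, 6.57 and 412 in unpollinated and 167, 22.2 and 162 in anthesis libraries, and CsaUNG030510 had 0 in unpollinated replicates 1 and 2. Standard errors of the log2 fold changes were large, at 0.89 ± 1.23 SE over inhibited and 3.15 ± 1.18 SE over anthesis ovaries for Csa5G321470. Csa5G546570, which met the rule by the widest margin of the 17, had 82.0, 16.3 and 93.6 in pollinated libraries, against 5.63 and 62.3 in inhibited, 0, 0 and 35.4 in unpollinated and 13.5, 0 and 1.84 in anthesis libraries.

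Of the 17 genes, 10 had identifiers with UN in place of the digit that other identifiers carry after Csa. Such identifiers made up 11 of the 60 genes (18.3%) and 0.658% of the genes tested (123 of 18679). Among the 34 and the 9 genes only CsaUNG013090 had one, and its pollinated libraries lay above the other 8. Of the 123 genes with UN, 32 had the order of the 17 genes, as had 194 of all genes tested. Reads shared between near-identical copies could not be followed in these counts, and the sequences of the genes were not used here. The other neighbours among the 60 genes were Csa6G006890 with Csa6G006900, and Csa4G050280 with Csa4G050780. Csa6G006900 had 123, 148 and 121 in pollinated libraries, against 54.4 and 68.8 in inhibited, 87.5, 72.2 and 37.4 in unpollinated and 52.1, 56.0 and 30.3 in anthesis libraries. It too was highest in the pollinated libraries. Csa4G050780, one of the 9 genes, varied widely between pollinated libraries, with 544, 164 and 67.7 in pollinated libraries, against 37.5 and 45.4 in inhibited, 41.6, 153 and 103 in unpollinated and 53.0, 30.2 and 31.2 in anthesis libraries.

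The values were also read within libraries of like unassigned share, where single libraries stand for some groups. These are the values that chose the genes and set their order, so a positive difference was largely given by the choice and the counts are a description. Among the 7 libraries with a low share, pollinated replicate 2 exceeded the mean of each other group in all 60 genes, and by 0.8 or more against all 3 groups in 45 (26 of the 34 and 13 of the 17 genes). Among the 4 libraries with a raised share, which include no anthesis library, 28 of the 34 genes had a difference of 0.8 or more over both inhibited replicate 2 and unpollinated replicate 3. Of the 17 genes, 0 did. Their median difference was 0.37 from inhibited replicate 2 (range -0.31 to 0.68) and 1.52 from unpollinated replicate 3. Compared with unpollinated replicate 1, which shares the second index form of the pollinated libraries, the mean of pollinated ovaries was 0.8 or more higher in 53 of the 60 genes and 28 of the 34.

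Genes were also chosen with 1 pollinated library set aside, and that library was then set against the means of the other groups. Those means had served the choice, which took genes low in them, so this is a description and no independent replicate check. Without pollinated replicate 1 the rule took 55 genes, and in replicate 1 itself 52 of these lay above the mean of each other group, 35 of them by 0.8 or more. Without pollinated replicate 3 it took 48 genes, of which 43 lay above and 29 reached 0.8 in replicate 3. Without pollinated replicate 2, the only pollinated library with a low unassigned share, it took 101 genes. In replicate 2 only 45 of these lay above and 26 reached 0.8, and the median difference was -0.31. The inhibited libraries weighed as heavily: without inhibited replicate 1 the rule took 37 genes, 30 of the 34 and 0 of the 17, and without inhibited replicate 2 it took 94. By fitted log2 fold change, 48 of the 60 genes stood 0.8 or more above all 3 groups, 33 of the 34 and 7 of the 17.

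The rule did not compare the inhibited, unpollinated and anthesis groups with each other, so these contrasts were tested in the fit across all genes, although the same libraries had served the choice. These contrasts share libraries with each other. The rule also held each of these group means at least 0.8 under the pollinated mean, and set a minimum at anthesis. It thus limited how far these groups could rise, so the shares called can differ from those of all genes through the choice alone. Most of the 60 genes were not called. Unpollinated ovaries had 4 of the 60 genes higher and 8 lower than anthesis ovaries (6.67% and 13.3%), where 17.6% and 18.1% of all genes were called (edgeR, threshold of 0.05 on the adjusted p-value). The median log2 fold change was 0.23 over the 60 genes and -0.01 over all genes. Dropping anthesis replicate 1 left 2 of the 4 genes called higher, and dropping anthesis replicate 3 left 1. Dropping unpollinated replicate 3 also left 1 of the 4, Csa4G001530, and 1 other gene was then called. Of the 8 genes called lower, dropping unpollinated replicate 2 left 4. A fit that also held the index form called 0 higher and 2 lower, where 4.42% and 4.03% of all genes were called, and 2 were higher at an unadjusted p under 0.05 (edgeR). Without the 4 libraries richest in unassigned reads, 2 genes were called higher and 17 lower. The lower share was then 28.3% of the 60 genes, against 14.2% of all genes. Of these 17 calls, 7 were among the 8 above and 10 were added. Of the same 17, 9 belonged to the genes highest in those 4 libraries. How the 60 genes stood against all genes in this direction thus depended on those libraries.

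Csa1G103250 fell most without pollination, by a log2 fold change of -2.23 ± 0.27 SE against anthesis (edgeR adjusted p = 0.000187), and stayed called under all 17 alternatives. Csa3G026160, named here after its values were seen because it too stayed called under all 17, fell by 0.56 ± 0.13 SE (edgeR adjusted p = 0.00493). Csa1G062380 and Csa3G132580 fell by 1.29 ± 0.30 SE and by 1.21 ± 0.34 SE (edgeR adjusted p = 0.00511 and 0.0155). The call of Csa3G132580 was lost without anthesis replicate 3 (-0.88) and unpollinated replicate 2 (-1.18), and a fit with the index form lost both. Csa4G001530 rose by 1.89 ± 0.44 SE (edgeR adjusted p = 0.00543), and its pollinated mean was higher still; its call too was lost with the index term. Csa3G630260 and Csa1G049450 rose by 1.68 ± 0.53 SE and 0.89 ± 0.27 SE (edgeR adjusted p = 0.0262 and 0.0201). Both calls were lost without unpollinated replicate 3, anthesis replicate 1 or anthesis replicate 3, with the 4 raised-share libraries left out and with the index term, and the value of Csa3G630260 was 0.89 without unpollinated replicate 3.

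Against anthesis, inhibited ovaries had 1 gene of the 60 higher and 3 lower (1.67% and 5%), where 4% and 3.36% of all genes were called. Csa1G532260 rose by 2.44 ± 0.52 SE (edgeR adjusted p = 0.0197), a call lost without anthesis replicate 3 or inhibited replicate 1 and with the index term. Csa5G622440 fell by 3.02 ± 0.44 SE and Csa5G505740 by 0.57 ± 0.09 SE (edgeR adjusted p = 0.00321 and 0.00355); the second index as a term ended both calls and no other alternative did. With that term the log2 fold changes were larger in size, at -3.38 for Csa5G622440 and -0.66 for Csa5G505740 (edgeR adjusted p = 0.102 and 0.196). Csa4G047950 fell by 1.28 ± 0.30 SE (edgeR adjusted p = 0.0261), and lost its call under 6 alternatives, among them leaving out inhibited replicate 1, anthesis replicate 1 or anthesis replicate 3. The lower count was 5 without pollinated replicate 1 (8.33% of the 60 genes, against 4.55% of all genes). With the index term, whose effect rests on the unpollinated libraries alone, both counts were 0. That fit called 0.0803% of all genes higher and 0.0107% lower, and at an unadjusted p under 0.05 it had 3 of the 60 genes higher and 2 lower (edgeR).

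Inhibited ovaries had 5 of the 60 genes higher and 4 lower than unpollinated ovaries (8.33% and 6.67%), where 9.81% and 9.83% of all genes were called. Csa5G622440 and Csa5G505740 were lower by log2 fold changes of -3.29 ± 0.44 SE and -0.57 ± 0.09 SE (edgeR adjusted p = 0.000581 and 0.00121), and both stayed called under all 17 alternatives. Csa4G047950 was lower, at -1.33 ± 0.30 SE (edgeR adjusted p = 0.00927; -1.09 and not called without inhibited replicate 1). Csa4G001560 was lower, at -2.03 ± 0.56 SE (edgeR adjusted p = 0.0251), a call lost under 6 alternatives, among them leaving out either inhibited library or unpollinated replicate 1. Csa1G103250, Csa1G143280 and Csa7G378520 were higher in inhibited ovaries, by 1.29 ± 0.31 SE, 1.28 ± 0.34 SE and 1.39 ± 0.44 SE (edgeR adjusted p = 0.0133, 0.0200 and 0.0420). These calls were lost under 4, 6 and 10 of the 17 alternatives, DESeq2 among them for Csa7G378520. Without inhibited replicate 2 all 3 calls were lost and Csa7G378520 stood at 0.60. The other 2 genes called higher in inhibited ovaries, at smaller differences, were Csa3G026160 (0.57 ± 0.14 SE) and Csa7G368090 (0.43 ± 0.13 SE). Csa7G368090 lost its call under 8 of the 17 alternatives, among them leaving out either inhibited library, and Csa3G026160 under 3, among them leaving out inhibited replicate 1 (edgeR adjusted p = 0.127). The higher count was 1 without inhibited replicate 2. It was 0 without unpollinated replicate 2, where 4.8% of all genes were called and 8 of the 60 passed an unadjusted p under 0.05 (edgeR). Without unpollinated replicate 3 it was 17, or 28.3% of the 60 genes against 7.11% of all genes. With that library included the shares, 8.33% and 9.81%, were close to each other. Of these 17 calls 3 were among the 5 above and 14 were added. Of the same 17, 13 belonged to the genes highest in the 4 libraries richest in unassigned reads. The order that defines those genes places inhibited replicate 2 above unpollinated replicates 1 and 2. The direction of these 13 calls was thus partly given by the division, and nothing is read from their share. The lower count was 2 without inhibited replicate 1.

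**Figure D4:**
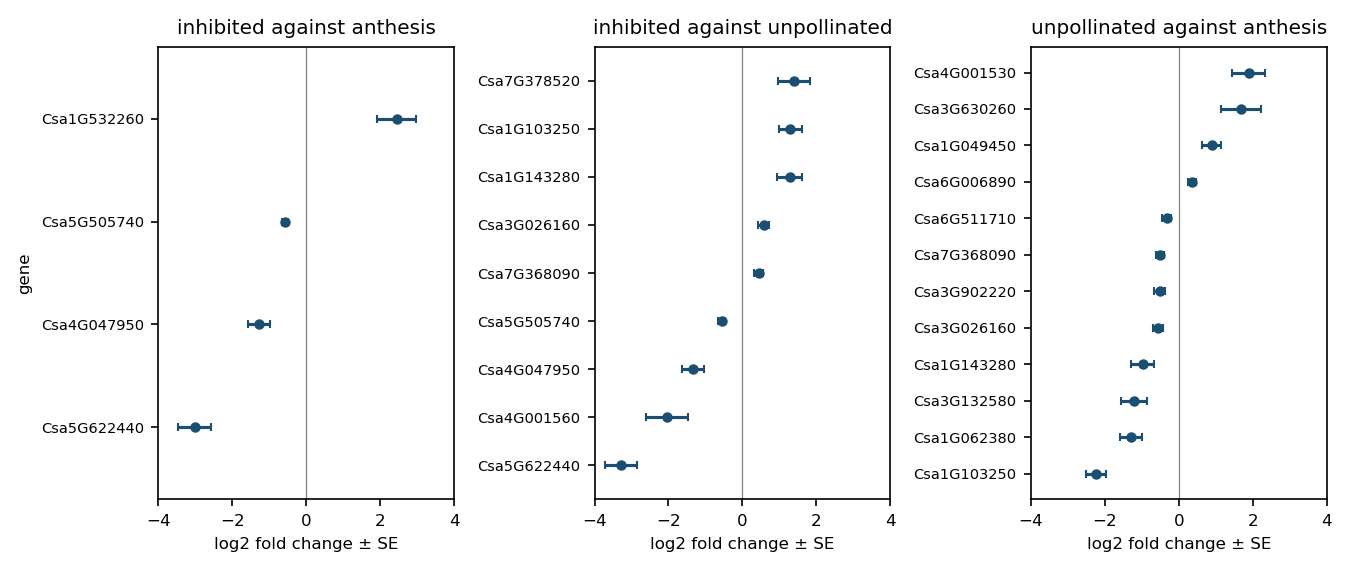
Log2 fold change with its standard error for each of the 60 genes that passed the edgeR threshold of 0.05 between inhibited and anthesis, inhibited and unpollinated, and unpollinated and anthesis ovaries. Values right of 0 are higher in the group named first, and Csa5G622440 lies lowest in both inhibited panels.

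At the edge of the rule, Csa1G604100 was the last gene taken, with 58.4, 47.9 and 61.5 in pollinated libraries, against 43.2 and 18.2 in inhibited, 30.9, 21.6 and 46.5 in unpollinated and 9.87, 29.3 and 7.34 in anthesis libraries. Its lowest difference was 0.802, from unpollinated ovaries. Csa7G044930 and Csa3G810500 were the nearest genes left out, with lowest differences of 0.790 and 0.778, also from unpollinated ovaries. Csa7G044930 had 39.8, 49.8 and 67.7 in pollinated libraries, against 35.7 and 10.4 in inhibited, 55.5, 16.9 and 26.3 in unpollinated and 28.7, 7.11 and 12.8 in anthesis libraries. Unpollinated replicate 1 lay between its pollinated libraries, whereas the pollinated libraries of Csa1G604100 were just clear of the rest.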

How the data were processed

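RNA-seq reads of 11 libraries were used as the authors deposited them, as raw counts per gene and as normalized counts (a signal, the deposited count divided by 1 size factor per library, tested on the files to a largest relative difference of 5.1e-10). Per the submitters' processing notes, STAR 2.5.0a, HTSeq 0.6.1p1 and DESeq2 were used; which build and gene models were used is not given in the sources used here. The 5 lines that name no gene entered neither library sizes nor tests, and held 10.8 to 24.8% of the reads.

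The genes were chosen by the rule on normalized counts. The members and lists were chosen with earlier results of these data known. Raw counts were fitted in edgeR 4.0.16 (R 4.3.3; filterByExpr by group, TMM, quasi-likelihood test, 1 mean per group over all 11 libraries, 18679 genes, Benjamini-Hochberg adjustment over all of them, threshold 0.05). A standard error is the absolute log2 fold change divided by the square root of F. The fit was also run on simulated counts with 1 setting of the spread for all genes and no effect of index form or unassigned share. Only inhibited against unpollinated was read there, so that run does not speak for the library patterns above. With 2 or 3 libraries per group, these p-values measure only the spread between these libraries, which the labels do not tie to separate plants. No sequences were used here.

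Genes were named by rank: the 10 with the largest lowest difference, the 5 with the highest pollinated mean, up to 3 per direction called in each contrast the rule did not use, the 2 nearest the threshold on each side, and those with adjacent identifiers. Alternatives were DESeq2 1.42.0, no filter, only the groups compared, the second index or unassigned share as a term, leaving out single libraries or the 4 with a raised share, and other settings of the rule. Those on the second index and the unassigned share were chosen after seeing the data.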

Additional observations from a re-analysis of the deposited data

How the results depend on the processing

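No paired analysis was possible because replicate numbers were given in accession order and pair no samples. The rule took 36 genes at a difference of 1.0, 110 at 0.6, 191 without level minima and 119 from libraries with the second index form of the pollinated ones. Leaving out 1 library gave 37 to 101. The cause of the changes below was not tested. Counts with the second index as a term were 0 higher and 2 lower (unpollinated against anthesis), and 0 higher and 0 lower (inhibited against anthesis). Without the 4 raised-share libraries, they were 2 and 17 (unpollinated against anthesis; 17 is 28.3% of the members, against 14.2% of all genes), 2 higher (inhibited against anthesis) and 2 higher (inhibited against unpollinated). For inhibited against anthesis, DESeq2 gave 2 higher and 5 lower (3.33% and 8.33%, against 5.37% and 5.40% of all genes). No filter and only the groups compared each gave 2 higher (3.33%, against 3.64% and 2.40% of all genes). Inhibited against unpollinated had 0 higher in the fit of only the groups compared, where 7.06% of all genes were called. With the unassigned share as a covariate it had 2 higher (3.33%, against 7.63% of all genes). Leaving out 1 library gave 1 to 5 higher and 4 to 9 lower (unpollinated against anthesis), 0 to 2 and 2 to 5 (inhibited against anthesis), and 0 to 17 and 2 to 4 (inhibited against unpollinated). The number of all genes called also changed between these fits, so the counts do not speak of the members alone. Of 2040 log2 fold changes of named genes over the other groups, 11 turned negative. With the index term these were -0.46 over inhibited for Csa7G378520, and -0.07 over unpollinated and -0.21 over inhibited for Csa7G044930. With the share covariate Csa3G856020 stood at -0.23 over anthesis. Without inhibited replicate 1, values over inhibited were -0.52 for Csa3G856020, -0.07 for Csa5G321500, -0.30 for CsaUNG030490, -0.14 for CsaUNG030500 and -0.09 for CsaUNG030510. Without inhibited replicate 2 the same genes stood at 4.06, 3.16, 2.93, 3.28 and 3.02. Without pollinated replicate 3 values were -0.18 for Csa3G856020 and -0.10 for CsaUNG030490. All 60 genes, named or not, were counted too. Without inhibited replicate 1, 9 of the 17 genes highest in the raised-share libraries and 1 of the 9 genes with neither order had a negative value. The median of the 17 over inhibited ovaries was then -0.07. Without pollinated replicate 3, 3 of the 17 and 1 of the 9 had one, and with the index term 2 of the 34. With the share covariate it was 1 of the 17 and 1 of the 9, and without the raised-share libraries 1 of the 17. Depth limits the low genes, and the 2 inhibited libraries limit each contrast with them.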
